A study of Mus musculus with 6 samples.

Results

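Arpc5l, Arpc5, Arpc2 and Actr3 encode subunits of the Arp2/3 complex, and they were chosen by their values in these same arrays, so their values are given as a description and were not tested. Every probe annotated to the 4 genes was taken, which gave 12 spots of 6 cDNA clones among 31200 spots of 15600 clones. Each clone was taken as 2 spots with consecutive probe numbers, which were averaged. Arpc5 and Arpc2 had 2 clones each, and Arpc5l and Actr3 had 1 each. Of 10 genes listed for the complex, 7 had a named probe. The 3 measured genes that were not chosen, Arpc1a, Arpc1b and Arpc4, are given for comparison from 4 clones. No named probe was found for Actr2, Actr3b or Arpc3.

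Cells of the mouse neuroblastoma line Neuro-2a were transiently transfected with GFP-tagged human TBP carrying 59 glutamines (59Q) or with pEGFPN3, the vector that supplies GFP without TBP (N3). Total RNA was taken after 60 h, and 59Q was set directly against N3 on each of 6 two-colour mouse cDNA arrays. The 59Q RNA carried Cy5 on replicates 1, 3, 4 and 6 and Cy3 on replicates 2 and 5. N3 cells received no TBP, so an excess of TBP and the length of its glutamine stretch cannot be told apart in this comparison, and no selection of transfected cells is described. Some of the arrays are dye-reversed repeats that the labels do not identify, so the spread over 6 arrays may be partly technical.

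The Arp2/3 complex starts new actin filaments as branches on the sides of existing ones. The actin-related proteins Arp2 and Arp3 mimic the end of a filament, Arpc2 and Arpc4 form the core that holds the mother filament, Arpc1 subunits receive activators, and Arpc5 subunits tie Arp2 to the rest. Activators of the WASP and WAVE families switch the complex on beneath the plasma membrane and on endosomes, and in neuronal cells branched actin shapes growth cones, neurites and synapses.

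The deposited value of each spot is a Z-ratio, a score that compares the 2 channels of an array, and over all spots of each array it has a mean of 0 and an SD of 1. It gives the place of a gene within its array and holds neither a fold nor a level, so subunits cannot be ranked by abundance. The study's methods name 59Q as the treated and N3 as the control sample, but the sources used here do not say whether the deposited values of the dye-reversed arrays were turned to match. It was read first as deposited, where a value above 0 means higher in 59Q, and then as the ratio of Cy5 to Cy3, which reverses replicates 2 and 5. As deposited, clone values correlated between arrays of opposite dye orientation at a median Pearson's r of -0.245 (8 pairs of arrays). Between arrays of the same orientation the median was 0.231 (7 pairs). The direction on replicates 2 and 5 is therefore unsettled. Values by replicate are as deposited, and gene means are given on both readings for the chosen subunits and, where the sign differs between readings, for the other named genes.

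Replicates 3, 4 and 6 had the most spots without a value and the most clones above a Z-ratio of 5. Between 19 and 11234 of the spots had no value on an array, with replicate 3 missing the most. Clones above 5 numbered 98, 50 and 29 on replicates 3, 4 and 6, against 0, 4 and 17 on replicates 1, 2 and 5. The low side differed, since replicate 5 had the most spots below -5, with 64. Replicates 3, 4 and 6 had 8, 34 and 36 such spots, and replicates 1 and 2 had 1 and 19. The clones of Tbp, the mouse counterpart of the transfected gene, averaged 2.92, 2.31, -0.0977, 0.176, 1.74 and 1.04 on replicates 1 to 6 as deposited, with a mean of 1.35 ± 1.19 (SD, n = 6), and the mean was -0.00150 with the sign turned. Whether these 2 mouse clones detect the human transcript was not tested. Because each value is a difference, the arrays cannot show which cells were present. Of 21 listed neuroblast markers 5 had a value, with a median of 0.123 as deposited and -0.0422 turned, and 11 of 21 markers of other cell types had medians of -0.0466 and -0.196, against -0.0449 and -0.160 over all 6463 genes tested.

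Since TBP assembles transcription complexes at gene starts, the promoters of the chosen subunits are shown for reference. The sequences are windows of 300 bases, mostly upstream of each annotated start. They were read from RefSeq on build GRCm38.p6, matched 3 of the 4 genes (Arpc5l had no entry), and carry the GC box (GGGCGG on either strand, bound by factors such as Sp1) in capitals.
Arpc5 promoter, chr1:152766292-152766591, plus strand: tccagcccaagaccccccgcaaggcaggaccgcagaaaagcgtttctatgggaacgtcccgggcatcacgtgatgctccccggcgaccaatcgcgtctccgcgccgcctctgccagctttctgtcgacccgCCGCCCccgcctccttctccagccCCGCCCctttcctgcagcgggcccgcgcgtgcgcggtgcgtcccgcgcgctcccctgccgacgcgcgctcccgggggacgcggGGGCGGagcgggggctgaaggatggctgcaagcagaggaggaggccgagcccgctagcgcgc
Arpc2 promoter, chr1:74236267-74236566, plus strand: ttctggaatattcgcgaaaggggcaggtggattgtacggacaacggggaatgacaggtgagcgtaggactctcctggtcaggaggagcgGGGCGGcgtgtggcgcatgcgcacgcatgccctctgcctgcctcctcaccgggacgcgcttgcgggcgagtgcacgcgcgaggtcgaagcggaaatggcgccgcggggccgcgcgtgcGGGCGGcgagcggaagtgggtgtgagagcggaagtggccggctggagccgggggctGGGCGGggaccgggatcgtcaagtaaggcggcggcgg
Actr3 promoter, chr1:125435678-125435977, minus strand: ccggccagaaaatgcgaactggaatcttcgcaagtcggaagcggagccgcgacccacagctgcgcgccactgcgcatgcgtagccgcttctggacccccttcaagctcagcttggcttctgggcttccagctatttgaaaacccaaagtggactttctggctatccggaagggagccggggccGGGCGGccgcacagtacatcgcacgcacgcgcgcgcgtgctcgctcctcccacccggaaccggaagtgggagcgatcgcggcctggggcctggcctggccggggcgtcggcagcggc
None of the 3 windows held TATAAA on either strand, which 13.6% of 32851 promoters of this length held. The GC box occurred 3 times in Arpc5, 3 times in Arpc2 and 1 time in Actr3, and 35.7% of all promoters had at least 1 copy. CCAAT was present in Arpc5 alone, against 37.4% of all promoters. Their GC content was 73.7% for Arpc5, 70.0% for Arpc2 and 67.3% for Actr3, and the median promoter had 52.7%. The arrays hold no measurement of TBP at these sites, and a match of letters is a description only.

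Arpc5l (chr2:39008066-39015878 in the same annotation) encodes a paralogue of Arpc5 that can take its place in the complex. Its clone had the highest mean of all 15600 clones as deposited, and that rank came from 3 arrays. With 59Q in Cy5, the Z-ratio was 2.39 on replicate 1, 6.30 on replicate 3, 11.2 on replicate 4 and 12.9 on replicate 6. With 59Q in Cy3, it was -2.26 on replicate 2 and -2.43 on replicate 5. The 4 arrays of the first orientation lay above 0 and the other 2 below it, with no overlap. The mean was 4.68 ± 6.58 (SD, n = 6), so the spread between arrays exceeded the mean itself. Within an orientation the mean was 8.20 ± 4.78 (SD, n = 4) for Cy5 and -2.34 for Cy3 (n = 2), a difference of 10.5.

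Read as Cy5 over Cy3, Arpc5l was above 0 on 6 of 6 arrays with a mean of 6.24 ± 4.78 (SD, n = 6), rank 3 of the 10156 clones measured on every array. A split by dye was common on these arrays. Of those 10156 clones, 12.5% were higher on every array with 59Q in Cy5 than on both with 59Q in Cy3, and 20.1% were lower on every one. On the second reading 8.44% of them were above 0 on 6 of 6 arrays. The part of the dye in the value of Arpc5l was not tested, because the gene was chosen on these arrays.

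**Figure D1:**
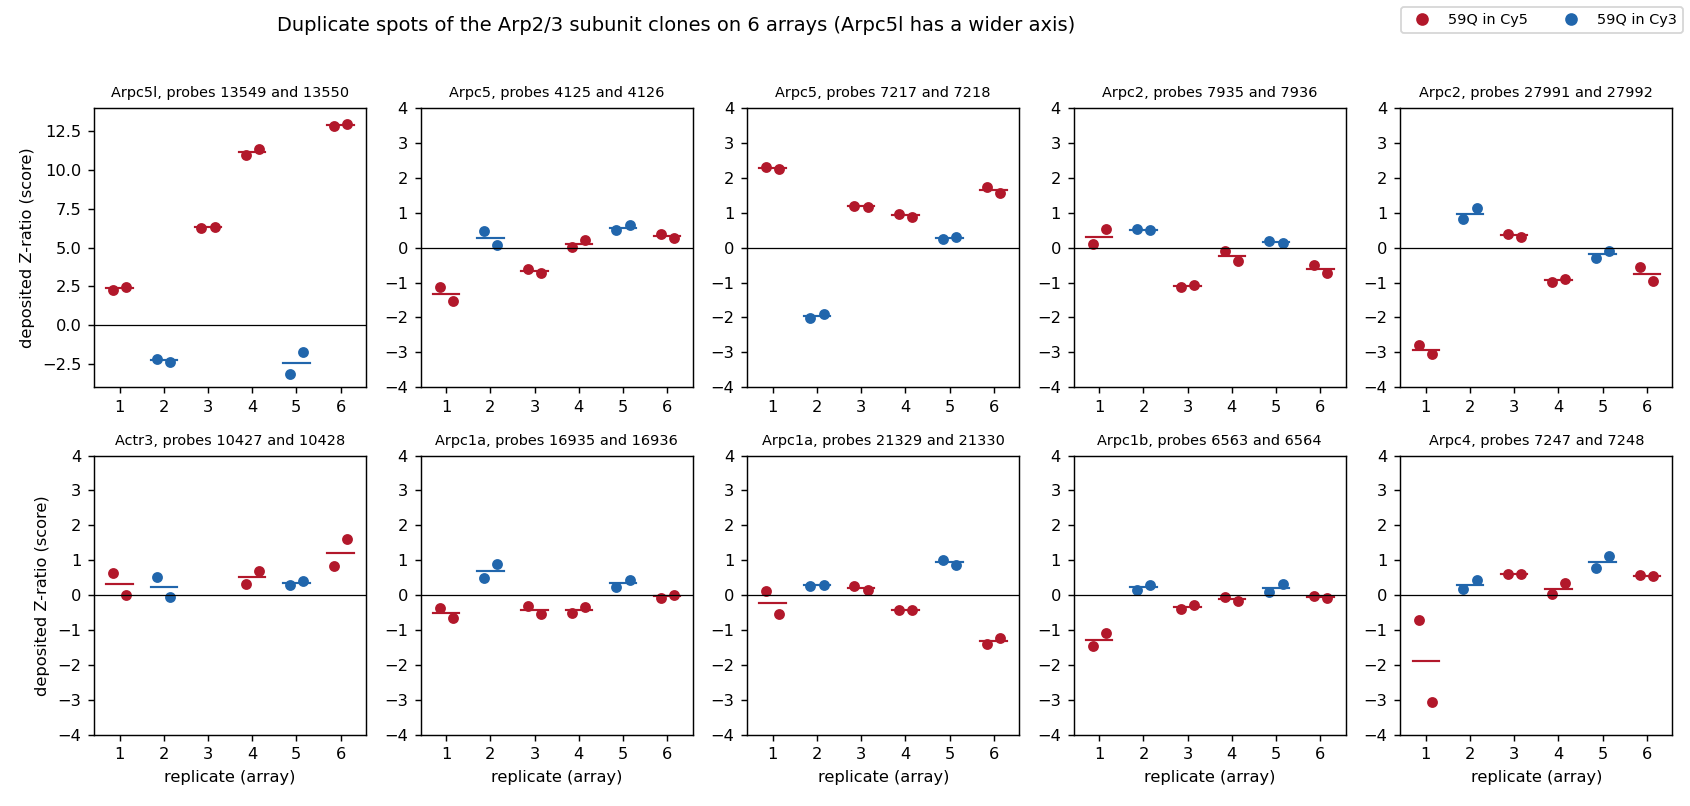
Deposited Z-ratio (score, vertical axis) of each spot of the 10 clones of Arp2/3 subunits on replicates 1 to 6 (horizontal axis), red for 59Q in Cy5 and blue for 59Q in Cy3, with a short line at the mean of the duplicate spots; the axis of Arpc5l reaches higher than the others. Arpc5l stood above 6 on replicates 3, 4 and 6 and below 0 on replicates 2 and 5, while every other clone stayed between -4 and 4.

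The extreme values of Arpc5l were shared by both of its spots. The first spot (probe 13549) read 2.28, -2.17, 6.28, 11.01, -3.14 and 12.85 on replicates 1 to 6. The other spot (probe 13550) read 2.49, -2.34, 6.33, 11.38, -1.71 and 12.95. On the high arrays the spots differed by 0.0525 on replicate 3, 0.378 on replicate 4 and 0.0945 on replicate 6, small beside the values themselves, although the gap on replicate 4 was wider than for 80.1% of clones there. The widest gap, 1.43 on replicate 5, was larger than that of 97.4% of clones. On the same 3 arrays the 10 clones before and the 10 after Arpc5l in probe order were lower. They ranged from -0.671 to 1.01 on replicate 3 (14 measured), from -1.42 to 1.42 on replicate 4 (18 measured) and from -1.18 to 0.963 on replicate 6 (17 measured). No neighbour in probe order was high with Arpc5l on those arrays, although probe order need not be the order on the slide. On replicate 1 a neighbour reached 3.17, above Arpc5l itself.

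The mean of Arpc5l rested on these extreme spots. Of its 12 spot values, 6 exceeded 5, all of them on replicates 3, 4 and 6. With spots beyond 5 in size left out of every array, the mean was -0.766, from replicates 1, 2 and 5 alone. With such spots set to 5 the mean was 2.12, and after quantile normalization it was 2.69. Leaving out 1 array at a time gave means from 3.04 (without replicate 6) to 6.11 (without replicate 5). A term for dye orientation in the fit gave 2.93, replicates 3, 4 and 6 alone gave 10.1, and the median over arrays was 4.35.

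On the arrays where it was not extreme, Arpc5l was still far from the middle. It ranked 293 of 15595 clones from the top on replicate 1, 360 of 15592 from the bottom on replicate 2 and 245 of 15111 from the bottom on replicate 5. On replicates 3, 4 and 6 it ranked 66 of 10518, 12 of 13298 and 2 of 13843 from the top. Few clones were extreme on several arrays. Across the series, 181 clones exceeded 5 on at least 1 array, 14 on at least 2 and 3 on at least 3. Arpc5l was the only named gene among those 3, all of which were high on replicates 3, 4 and 6, and the other 2 clones had no gene name. Both of these fell far below 0 on replicate 5, to -10.9 for probe 14205 and -11.8 for probe 7699. As deposited, the highest means over 6 arrays after Arpc5l were 3.38 and 3.21 for unnamed clones and 3.19 ± 5.30 (SD, n = 6) for Ubxn8, while on the second reading 2 clones lay above Arpc5l.

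The study's methods set a Z-ratio limit for a changed gene, the value that leaves 5% of a standard normal distribution outside it on both sides together. Of the 6 chosen clones, 1 (Arpc5l) had a mean past that limit above 0 as deposited, as had 0.346% of all clones, and the same clone alone passed it when the sign was turned, against 1.04% of all clones. The choice of genes used this contrast, so the count is not a result about the complex. Among clones with a gene name, the one least far past the limit was Yipf6 at 1.98 ± 4.35 (SD, n = 4). The named clone that fell just short of it was Bst2 at 1.95 ± 1.08 (SD, n = 6). Fitted with limma over all genes, 0% of 6463 genes passed an adjusted p of 0.05 as deposited (169 had an unadjusted p below 0.05), and 0.279% passed when read as Cy5 over Cy3.

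Arpc5 (chr1:152766542-152775580) encodes the small subunit for which Arpc5l can stand in, and its 2 clones did not behave alike. The clone of probes 7217 and 7218 read 2.27, -1.95, 1.18, 0.926, 0.285 and 1.64 on replicates 1 to 6, a mean of 0.728 ± 1.47 (SD, n = 6). The clone of probes 4125 and 4126 read -1.32, 0.283, -0.679, 0.119, 0.577 and 0.344, a mean of -0.113 ± 0.732 (SD, n = 6). The first of these was higher on all 4 arrays with 59Q in Cy5 than on both with 59Q in Cy3, as for Arpc5l, whereas the other overlapped between orientations. On the 4 Cy5 arrays the clone of probe 7217 lay between the 91.7 and the 97.8 percentile of each array. Averaged over both clones, Arpc5 was at 0.476, -0.832, 0.252, 0.522, 0.431 and 0.994, with a mean of 0.307 ± 0.610 (SD, n = 6) as deposited and 0.441 ± 0.503 (SD, n = 6) when turned. That mean was 0.535 without replicate 2 and 0.170 without replicate 6, and in each case it was smaller than the SD over 6 arrays.

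Arpc2 (chr1:74236490-74268209), a core subunit that contacts the mother filament, was the 1 chosen gene with a mean below 0. Its clone of probes 27991 and 27992 read -2.93, 0.976, 0.359, -0.940, -0.187 and -0.754 on replicates 1 to 6, a mean of -0.579 ± 1.35 (SD, n = 6). Its clone of probes 7935 and 7936 read 0.319, 0.517, -1.11, -0.244, 0.167 and -0.615, a mean of -0.160 ± 0.617 (SD, n = 6). On replicate 1 the clones stood apart, since probe 27991 was 14 from the bottom of 15595 clones while probe 7935 was at the 65.2 percentile. On that array the 20 clones around probe 27991 were also low, with a median of -1.60 and a lowest value of -4.92, and the part of that region in the value was not tested. Averaged over clones, Arpc2 was at -1.30, 0.747, -0.374, -0.592, -0.0104 and -0.684, with a mean of -0.370 ± 0.692 (SD, n = 6). All 4 of these averages with 59Q in Cy5 lay below both with 59Q in Cy3, the reverse of Arpc5l. In each clone alone the orientations overlapped, and 20.1% of clones on all 6 arrays were lower on every Cy5 array. The turned mean of Arpc2 was -0.615 ± 0.435 (SD, n = 6). The mean as deposited was -0.183 without replicate 1, -0.593 without replicate 2, -0.603 after quantile normalization and -0.185 with a dye term.

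Actr3 (chr1:125392905-125435727) encodes Arp3, one of the actin-related subunits that start the new filament. Its single clone read 0.319, 0.230, 0.509, 0.356 and 1.21 on replicates 1, 2, 4, 5 and 6, and replicate 3 had no value. It was the only chosen gene above 0 as deposited on every array that measured it, 5 of 5, with a mean of 0.526 ± 0.398 (SD, n = 5). Of the clones measured on 6 arrays, 0.295% were above 0 on all 6, which is a stricter condition than 5 of 5. The share of clones above 0 on the same 5 arrays was not counted, so how common the pattern of Actr3 is was not tested. The spots of Actr3 differed by more than those of Arpc5l on replicates 1, 2 and 6 and by less on replicates 4 and 5. On replicate 6 the spots of Actr3 differed by 0.784, more than for 94.7% of clones there. Without replicate 6 the mean was 0.353. Turned, the mean was 0.291 ± 0.631 (SD, n = 5), with 3 arrays above 0 and 2 below.

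The measured subunits that were not chosen had means closer to 0 than the chosen ones as deposited, but not when turned, where all 3 were larger in size than Actr3. The choice used the values of this contrast, so the difference between chosen and other subunits is not a result about the complex. Arpc1a and Arpc1b, alternative forms of the subunit that receives activators, are neighbouring genes (chr5:145083869-145108756 and chr5:145114256-145128186). Arpc1a read -0.368, 0.488, -0.108, -0.424, 0.643 and -0.672 on replicates 1 to 6, with a mean of -0.0735 ± 0.529 (SD, n = 6), which was 0.0461 without replicate 6, -0.00337 without replicate 4 and -0.217 without replicate 5. Arpc1b read -1.27, 0.233, -0.335, -0.115, 0.210 and -0.0446, with a mean of -0.221 ± 0.557 (SD, n = 6), which was -0.0104 without replicate 1. Both were below 0 on all 4 Cy5 arrays and above 0 on both Cy3 arrays, as the clone average of Arpc2 nearly was. Read as Cy5 over Cy3 they were thus below 0 on 6 of 6 arrays, at -0.451 ± 0.206 and -0.368 ± 0.454 (SD, n = 6). This direction was common. Of the clones on all 6 arrays, 20.1% were lower on every Cy5 array than on both Cy3 arrays. On the turned reading 4227 of 6463 genes had a mean below 0. The share below 0 on 6 of 6 arrays was not counted. Arpc4 (chr6:113378113-113390447), the core partner of Arpc2, read -1.89, 0.304, 0.616, 0.186, 0.947 and 0.564, with a mean of 0.121 ± 1.02 (SD, n = 6). The low value on replicate 1 came from spots that differed by 2.34, more than for 99.8% of clones on that array, and without that replicate the mean was 0.523. It was -0.0441 without replicate 5, and the turned mean was -0.296. In the limma fit over all genes, 0 of these 3 genes passed an adjusted p of 0.05 as deposited or turned. The smallest unadjusted p on the turned reading was 0.0258 for Arpc1a (limma, adjusted p = 0.204). On that reading 1 of the 3 was below 0.05, where 19.8% of all genes were. As deposited, 0 of 3 were below 0.05, where 2.61% of all genes were.

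**Figure D2:**
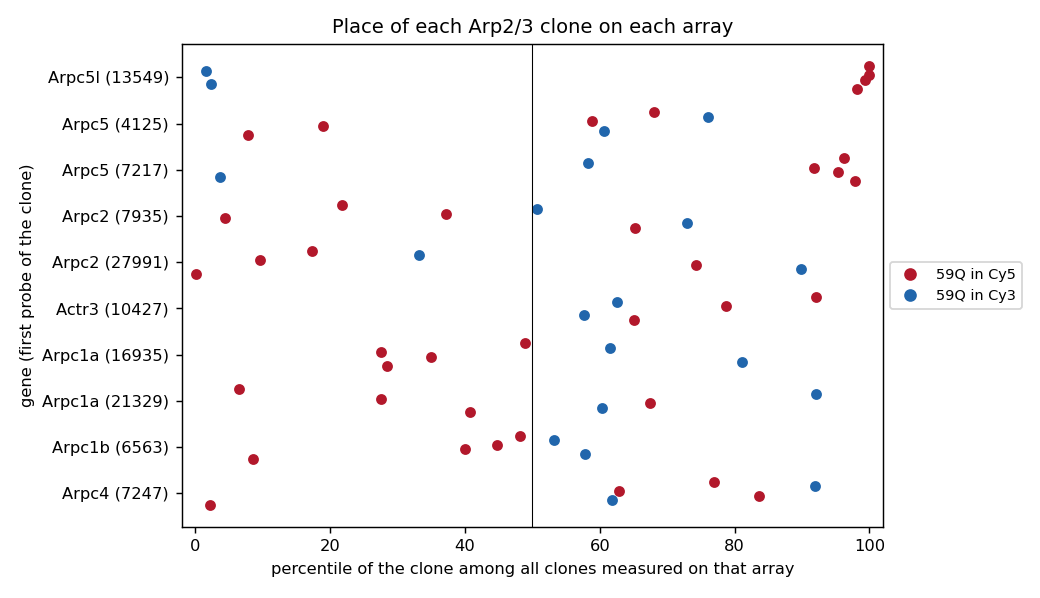
Percentile of each Arp2/3 clone among all clones measured on the same array (horizontal axis, 0 for the lowest Z-ratio as deposited), 1 row for each clone, red points for the 4 arrays with 59Q in Cy5 and blue points for the 2 with 59Q in Cy3. Arpc5l occupied both ends, at 98.1 or more in Cy5 and at 2.30 or less in Cy3, and the clone of Arpc5 at probe 7217 had its Cy5 arrays at 91.7 or more, while both clones of Arpc2 were spread over the range.

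The clones of a subunit were compared because they report on the same transcript. The r between clones was computed on values as deposited only. Over 740 genes with 2 clones on all 6 arrays, its median was 0.211, and 38.6% of the genes had an r below 0. The clones of Arpc5 had an r of -0.562, lower than all but 9.73% of these genes, and differed by 1.68 on average, more than all but 3.38%. The clones of Arpc2 had an r of -0.173 with a mean difference of 1.06, against a median difference of 0.732. Those of Arpc1a had an r of 0.394 with a mean difference of 0.537. As deposited, agreement between clones of 1 gene was thus low on these arrays in general, and that of Arpc5 was in the lower part of the distribution. Arpc5l and Actr3 had 1 clone each and allow no such comparison.

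**Figure D3:**
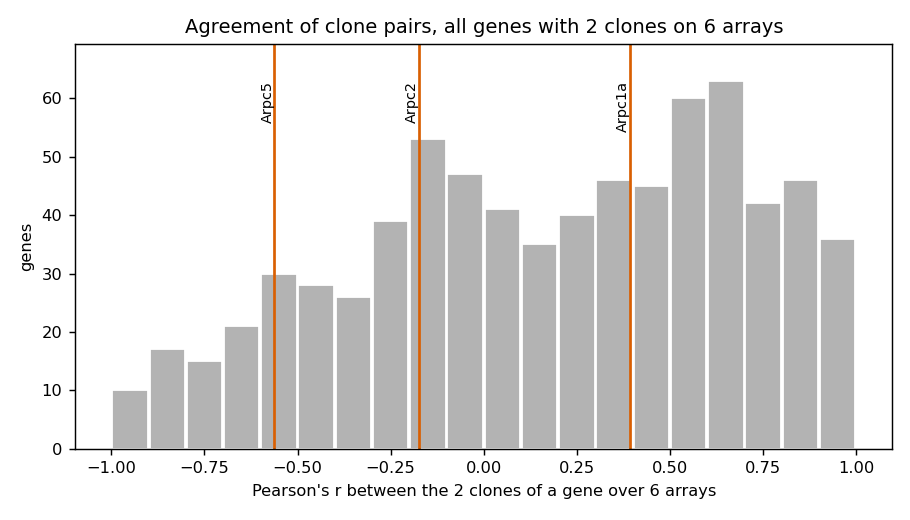
Number of genes (vertical axis) by Pearson's r over 6 arrays between the 2 clones of a gene (horizontal axis). Values are as deposited, for 740 genes with 2 clones. Vertical lines mark Arpc5 at -0.562, Arpc2 at -0.173 and Arpc1a at 0.394, and the median over genes was 0.211.

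As deposited, the subunits did not move as 1 unit over the arrays. All genes of an array share its dye orientation and its scaling. Every r given here, also with the most similar genes, was computed on values as deposited. Turning the sign of replicates 2 and 5 can change each r, and none was computed on the second reading. Over the 6 arrays, the r between gene values was 0.677 for Arpc5l and Arpc5, the paralogues, and -0.536 for Arpc5l and Arpc2. Arpc5 and Arpc2 had an r of -0.780, and Arpc5l and Arpc1a an r of -0.895. Among the others, Arpc2 had an r of 0.811 with Arpc1b and 0.779 with Arpc1a, and Arpc1b had an r of 0.908 with Arpc4. Arpc2, Arpc1b and Arpc4 each had their lowest value on replicate 1, at -1.30, -1.27 and -1.89. The spots of Arpc4 differed by 2.34 on that array. No r was computed without replicate 1, so how far these r values rest on that array was not tested. Arpc1b was only weakly related to the paralogues, with an r of -0.101 with Arpc5l and -0.289 with Arpc5. The value of Arpc5 averages 2 clones that disagreed with each other. The gene most like Arpc5l among 4923 named genes on all 6 arrays was Ctdspl (r = 0.991), followed by Tomm40 (0.984) and Ap2s1 (0.978), whose own values reached no more than 1.34, 1.05 and 1.28. For Arpc5 they were Slc38a9 (0.989), Fundc2 (0.976) and Lrrc8a (0.974). For Arpc2 they were Bbs7 (0.998), D5Ertd605e (0.995) and Med10 (0.994). An r above 0.9 was reached by 0.995% of genes with Arpc5l, 0.995% with Arpc5 and 5.59% with Arpc2. Actr3, with 5 arrays, was not compared in this way.

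**Figure D4:**
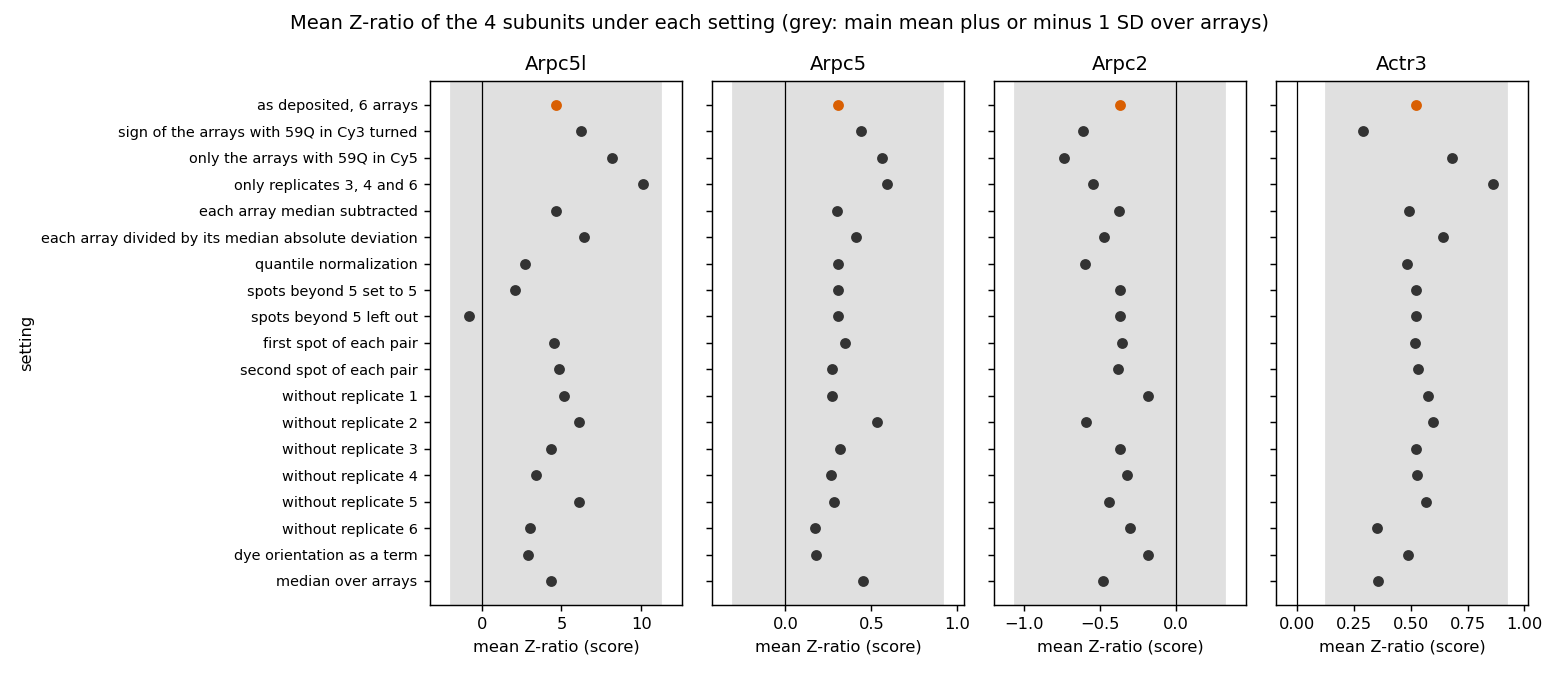
Mean Z-ratio (score, horizontal axis, a separate scale for each gene) of the 4 chosen subunits under each way of processing (rows), with the mean as deposited in orange and a grey band of 1 SD over arrays around it. Arpc5l ranged from -0.766 with spots beyond 5 left out to 10.1 on replicates 3, 4 and 6 alone, and the means of the other 3 genes kept their sign.

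The genes that act with the complex were examined in 6 lists, which held 51 tested genes. As deposited, 0 of the 51 passed an adjusted p of 0.05 in limma, as for all genes (0%), and 2 had an unadjusted p below 0.05, which is 3.92% against 2.61% of all genes. Read as Cy5 over Cy3, 1 of the 51 passed, where 18 of all 6463 genes (0.279%) did. On that reading 14 had an unadjusted p below 0.05 in limma, 27.5% against 19.8%. On neither reading did a list other than that of actins and other nucleators hold a gene that passed.

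The activators and the complexes that control them lay slightly below 0. The nucleation-promoting factors, which switch on the Arp2/3 complex, were listed together with the WASP-interacting proteins (Wipf1, Wipf2 and Wipf3), and this list had a median of -0.174 as deposited, with 0 of 6 genes above 0 and 6 below, against a median of -0.0449 over all genes, of which 2785 were above 0 and 3678 below. Wipf1, which stabilises WASP, had a mean of -0.513 ± 0.669, Wasf2, a WAVE protein, -0.285 ± 0.409 and Was, the blood-cell WASP, -0.248 ± 0.424 (SD, n = 6 each). The common sign did not hold on the second reading, where 3 were above 0 and 3 below with a median of -0.107, and the means were -0.651 for Wipf1, 0.0597 for Wasf2 and 0.0898 for Was. Over all genes 2236 were above 0 and 4227 below on that reading. The WAVE and WASH regulatory complexes had a median of -0.119, with 2 of 7 genes above 0, and named members were Washc2 at -0.488 ± 0.809 (SD, n = 5), Washc3 at -0.467 ± 0.907 (SD, n = 6) and Nckap1 at -0.210 ± 1.07 (SD, n = 5). Turned, 0 of the 7 were above 0, with a median of -0.465 against -0.160 over all genes, and 0 of them passed an adjusted p of 0.05.

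The upstream and opposing genes showed values of the same small size. Among GTPases and adaptors, which carry signals from the membrane, 3 of 8 tested genes were above 0 as deposited (median -0.0523) and 2 of 8 when turned (median -0.326). Arf1 was at -0.232 ± 0.505, Grb2 at -0.195 ± 0.690 and Rhob at -0.122 ± 0.713 (SD, n = 6 each). Turned, Arf1 was at 0.225, Grb2 at -0.632 and Rhob at -0.521. The list of inhibitors and debranching factors, which as drawn up also holds the centrosomal gene Cdk5rap2, had 1 of 6 genes above 0 (median -0.165) and 0 of 6 when turned (median -0.224). Its named members were coronins, a family of which some members help to take branches apart. Coro2b was at -0.542 ± 0.953 (SD, n = 6), Coro1c at -0.335 ± 1.15 (SD, n = 5) and Coro7 at -0.267 ± 0.605 (SD, n = 6).

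Actin itself, the substrate of the complex, was higher on every Cy5 array than on both Cy3 arrays, at a smaller size than Arpc5l. This split was not particular to actin and Arpc5l, since 12.5% of clones on all 6 arrays had it. Cap1 and Tmsb4x, described below, had it too. Actg1, cytoplasmic gamma-actin, read 1.87, -1.77, 1.70, 0.968, -1.06 and 1.02 on replicates 1 to 6, a mean of 0.455 ± 1.51 (SD, n = 6) as deposited. Read as Cy5 over Cy3 its mean was 1.40 ± 0.422 (SD, n = 6), above 0 on 6 of 6 arrays, and it was the 1 pathway gene that passed (limma, adjusted p = 0.0442). With dye orientation as a term in the fit, 0 of 6463 genes passed in limma (180 had an unadjusted p below 0.05) and the mean of Actg1 was -0.0115. Actb, beta-actin, had means of 0.491 ± 1.71 as deposited and 1.45 ± 0.840 turned (SD, n = 6), and missed the threshold on the second reading (limma, adjusted p = 0.0770). The list of actins and other nucleators had 3 of 8 genes above 0 as deposited (median -0.184) and 5 of 8 when turned (median 0.336). It also holds Actr1a, an actin-related protein of dynactin, at -0.774 ± 0.799 (unadjusted p = 0.0255 in limma, adjusted p = 0.999), Actl6a, an actin-related protein of chromatin remodellers, at 0.595 ± 1.23, and the nucleator Spire1 at -0.319 ± 0.536 (SD, n = 6 each).

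Filament turnover and capping genes, which recycle actin and close filament ends, had 9 of 16 members above 0 on both readings, with medians of 0.0701 as deposited and 0.113 turned. The member furthest from 0 on both readings was Tmsb4x. It was at -0.794 ± 5.47 as deposited, from -11.3 on replicate 5 to 4.36 on replicate 3, and at 3.13 ± 4.35 turned (SD, n = 6). Limk2, a kinase that inactivates cofilin, was at -0.659 ± 0.601 (SD, n = 6) with an unadjusted p of 0.0286 in limma (adjusted p = 0.999), and its mean was 0.0764 when turned. Cap1, which recycles actin monomers, was at 0.516 ± 1.33 as deposited and 1.24 ± 0.507 turned (SD, n = 6; limma, adjusted p = 0.0659 on the second reading). Capza2, a capping protein subunit, was at -0.281 ± 0.310 (SD, n = 6). The 7 measured subunits of the complex had a median of 0.121 as deposited (4 above 0, 3 below) and -0.296 turned (3 above, 4 below). The sign of this median thus differed between readings. Of the 7 subunits, 4 were chosen by their values in this contrast, so these figures are a description and not a result about the complex.

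**Figure D5:**
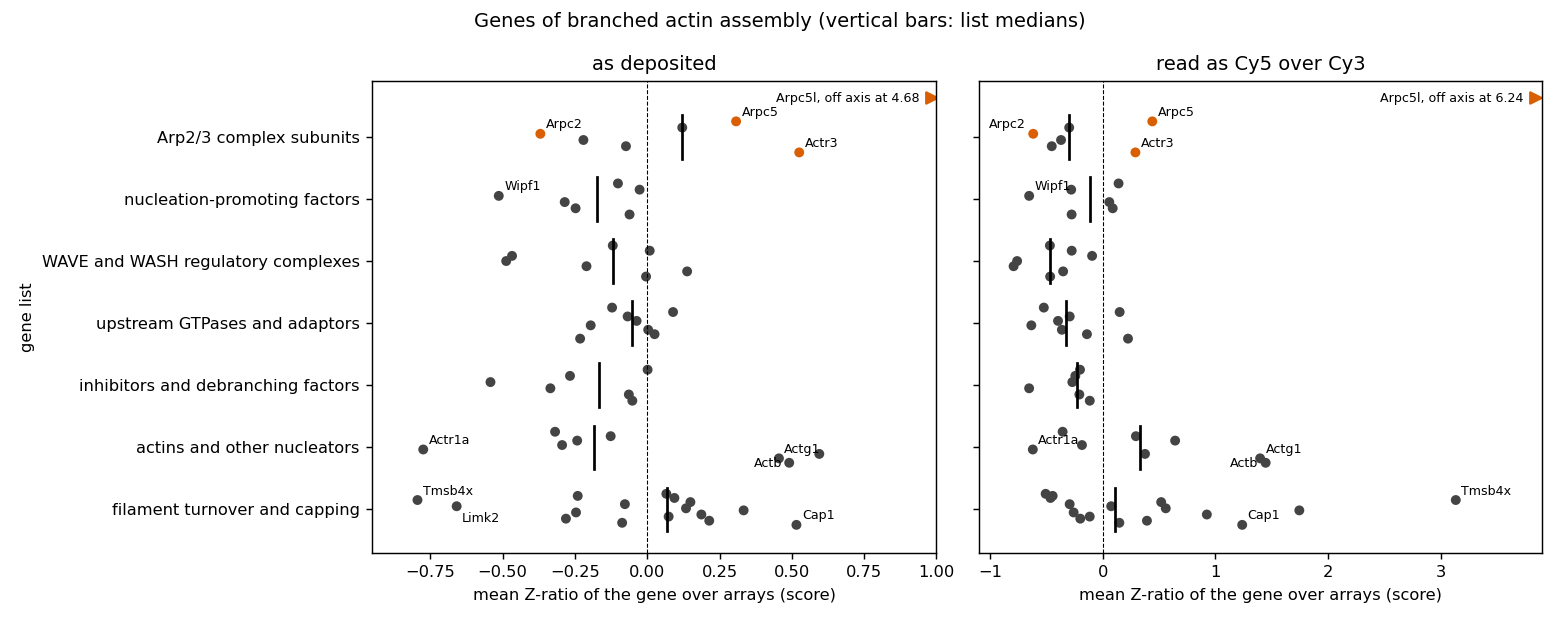
Mean Z-ratio over arrays (score, horizontal axis; the scales of the panels differ) of each measured gene on at least 4 arrays, by gene list (rows), as deposited on the left and read as Cy5 over Cy3 on the right, with chosen subunits in orange and list medians as vertical bars. Arpc5l lies beyond the axis at 4.68 and 6.24, marked by an arrowhead, and Actg1 and Actb move from 0.455 and 0.491 on the left to 1.40 and 1.45 on the right.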

How the data were processed

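Total RNA of 59Q and N3 cells was compared on 6 two-colour mouse cDNA arrays. Per the labels and the study's methods, the authors labelled RNA by tyramide signal amplification (Micromax), quantified the scanned slides in GenePix Pro and applied a Z score transformation. The deposited values are Z-ratios, a score per spot and array. Software versions and the direction of the ratio were not given in the sources used here. No scanner intensities were used, so signal over background and depth are unknown.

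Probes were named from GEO's platform annotation, updated through Entrez identifiers (18172 of 18384 singly named spots matched; 212 kept the older symbol; 514 had several symbols and 12302 none). Both spots of each of 9449 annotated pairs shared an accession and were averaged into clones, and clones into genes. Gene positions come from RefSeq (GRCm38.p6); the build behind the array is not stated. Means and SDs are over arrays. Background fits used limma 3.58.1 in R 4.3.3 (intercept, eBayes, Benjamini-Hochberg over all genes with at least 4 arrays), after a test on simulated data; figures and counts used Python 3.11.15 and pandas 2.3.3. The methods place the replicates in separate batches, so batch and array cannot be told apart. The p-values measure the spread between these arrays, which may be technical.

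Named genes were the 4 chosen subunits, the other measured subunits, the genes of lowest unadjusted p in each list as deposited (at most 3), Actb, Actg1 and Tbp. The 3 genes most correlated with each chosen subunit on 6 arrays were also named, as were the clones with a gene name nearest the study's Z-ratio limit on either side. The members and lists were chosen with earlier results of these data known. Alternatives were the dye reading, scaling, limits on extreme spots, single spots, left-out arrays, a dye term and the filter on missing values.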

Additional observations from a re-analysis of the deposited data

Results flagged for a closer look

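Among 28 named genes examined for an array that stands far from the others (Dixon's test of the gap against the range), 4 had one. Chance alone marks about 1 in 20 groups. Actr3 read 1.21 on replicate 6, with its other 4 values between 0.230 and 0.509 and a gap of 0.717 of the range. Arpc4 read -1.89 on replicate 1, a gap of 0.732 of the range, where its spots also differed by 2.34. Actr1a, of dynactin, read -2.33 on replicate 1, a gap of 0.693, with its other values between -0.779 and -0.0900. Actl6a, of chromatin remodellers, read 3.03 on replicate 4, a gap of 0.736, with its other values between -0.362 and 0.532. The values of Arpc5l did not meet this criterion, and 3 of its 6 arrays were extreme together.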

How the results depend on the processing

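Of 72 alternative values of the 4 chosen subunits, 72 moved by less than 1 SD over arrays. That SD was 6.58 for Arpc5l, whose mean was below 0 with spots beyond 5 left out (-0.766). Of the other named genes, 430 alternative means moved by less than 1 SD, and 2 moved further, those of Limk2 (0.0764) and Tbp (-0.00150) with the sign of the Cy3 arrays turned. Counts over all features moved more. Reading Cy5 over Cy3 raised genes called from 0 to 18 and clones called from 0 to 279, including 1 gene of the list of actins and other nucleators, and replicates 3, 4 and 6 alone called 4 clones. Clones with a mean past the study's limit above 0 numbered 54 as deposited, 162 turned, 212 on the Cy5 arrays, 29 with a dye term, 21 when all 6 arrays were needed, 7 with spots beyond 5 set to 5, 1 with such spots left out, and 30 to 130 without single arrays (30 without replicate 4, 130 without replicate 2, 86 without replicate 5). Clones past it below 0 numbered 27, against 57 on the Cy5 arrays, 7 with spots set to 5, 6 with them left out, 1 when all 6 arrays were needed, and 21 to 74 without single arrays (74 without replicate 1, 47 without replicate 2). The turned sign and the removal of spots act by construction; for the other settings the cause was not tested. Further settings, chosen after seeing the data, gave 105 above and 69 below with each array divided by its median absolute deviation, 187 and 57 on replicates 3, 4 and 6, 13 below after quantile normalization and 51 below with the second spot of each pair. With 2 arrays in Cy3, a value from that orientation alone has no usable spread, and without intensities a weak spot cannot be told from a bright one.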
